A study of Mus musculus with 2 samples.

Results

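Prostaglandins are signalling lipids made from arachidonic acid, a fatty acid that phospholipases A2 release from membranes. The cyclooxygenases Ptgs1 and Ptgs2 turn it into prostaglandin H2, terminal synthases convert that intermediate into prostaglandin E2, D2, prostacyclin or thromboxane, and the dehydrogenase Hpgd inactivates the product. In skin these lipids are known from inflammation and pain, from epidermal growth and from the hair cycle, in which prostaglandin D2 and E2 have been assigned opposing roles. The 10 genes described here were listed by symbol: both cyclooxygenases, the E synthases Ptges, Ptges2 and Ptges3, the D synthase Ptgds, the prostacyclin synthase Ptgis, the thromboxane synthase Tbxas1, Hpgd, and Ptger4, a receptor for prostaglandin E2. They are 10 of the 27621 gene or transcript names on the array, and 16 probes represented them.

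Skin RNA of Pla2g2f-Tg/+ mice, which overexpress the secreted phospholipase Pla2g2f, was set against that of littermate controls on 2 Agilent two-colour arrays. Both genotypes were on a C57BL/6 background, were 25 days old and received a standard diet, and RNA of 4 animals was pooled per genotype. The sources used here do not name the promoter that drives the transgene. Transgenic RNA carried Cy5 on array 1 and, after a dye swap, Cy3 on array 2. Separate pools for the arrays are not mentioned, so both arrays were taken as 1 replicate. No test across mice exists for such a design, and a value is given from each array. Their distance includes technical error and dye bias, and whether it also holds variation between mice is not known. A gene was called when it differed at least 2-fold in the same direction on each array.

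A gene counted as measured when array 1 read a probe of it well above background in either channel, which held for 10464 genes. The median of their mean log2 ratios (transgenic over control) was -0.01 and the median distance between the arrays was 0.23. The rule called 389 genes higher and 176 lower, so that 68.8% of calls were higher. Spike-in RNAs lay 0.46 above the zero of this scale. Centred on them, 176 genes were higher and 457 lower, and the higher share was 27.8%. All 6 keratinocyte markers were well above background in both channels, and 2 were called higher, Krt1 at a mean of 2.26 and Krt14 at 1.12 (summed signal 214920 in the control and 325694 in the transgenic pool). Krt1 alone (1 of 6) was called on the spike-in scale. Sums over a marker list follow its brightest probes and are given as a description. Pla2g2f itself had log2 ratios of 0.54 and 0.34, which passed neither the 2-fold rule nor a 1.5-fold one, and its mean turned to -0.02 on the spike-in scale. The overexpression is therefore taken from the labels, and whether this probe reads the transgene's transcript was not tested. In pooled skin RNA, fewer cells of a type and less transcript per cell cannot be told apart.

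Probes of 4 members are shown in the orientation of the array design, in lower case. That of Ptgds is given whole, with the letters of a stop codon in capitals, because its 60 bases map across 532 bases of the genome. They skip 472 bases, as a probe across a splice junction does. In the frame of that stop no earlier stop occurs in the 53 bases before it, and 4 bases follow it. Of the probes for Ptgs1, Ptges and Ptger4 the first 30 of 60 bases are shown. Ptgs1 and Ptges had the largest positive mean ratios among measured members, and Ptger4, which was not measured, had 2 probes with unlike readings.
Ptgds (A_51_P157406): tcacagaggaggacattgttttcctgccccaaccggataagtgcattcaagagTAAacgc
Ptgs1 (A_51_P279100): gagccacacttagactctttccaaagatgt
Ptges (A_51_P312327): gccacttacagatgagctgtcaagatttga
Ptger4 (A_51_P207988): aagcacattggctgtcattctgatgtgact
On mm8, the build of the array design, the Ptgds probe lies on the minus strand at chr2:25289331-25289862. That of Ptgs1 lies on the plus strand at chr2:36074133-36074192, that of Ptges on the minus strand at chr2:30714327-30714386, and that of Ptger4 on the minus strand at chr15:5181634-5181693. No mm8 gene annotation was used here, so exons and untranslated regions are not assigned. The brightest probes of the other measured members lie on the plus strand, at chr2:32224457-32224516 for Ptges2, chr10:127479590-127479649 for Ptges3 and chr8:59212744-59212803 for Hpgd.

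Of the 10 genes, 6 were measured: Ptgs1, Ptges, Ptges2, Ptges3, Ptgds and Hpgd. Ptgds was called lower, and no member (0) was called higher. Over all measured genes, 1.68% were called lower and 3.72% higher. At 1.5-fold on each array, 1 member was lower (Ptgds) and 1 higher (Ptges), beside 3.79% and 8.26% of all measured genes. Ptges counted as measured only through the transgenic channel, in which it read higher. With both channels required, 5 members were measured and Ptges was not among them. With so few members measured, these counts are a description. The mean log2 ratios of the 6 ran from -1.17 to 0.73 with a median of 0.01, beside -0.01 for all measured genes. The signs of the 6 were mixed: 2 lay above 0 on both arrays, 2 below 0 on both, and 2 had opposite signs on the 2 arrays.

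**Figure D1:**
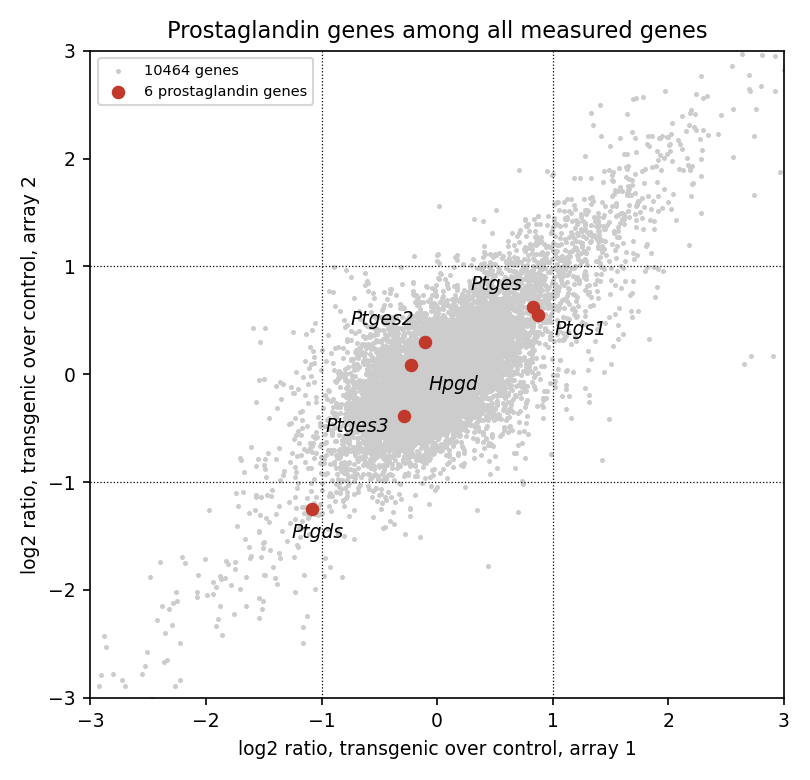
Each grey point is 1 of 10464 measured genes, with its log2 ratio of transgenic over control on array 1 (horizontal) and array 2 (vertical); red points are the 6 measured prostaglandin genes, dotted lines mark 2-fold, and 70 genes beyond 3 on either axis are not drawn. Ptgds lies past 2-fold on both arrays, Ptgs1 and Ptges lie side by side short of it, and the other 3 lie within the bulk of genes.

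Ptgs1 encodes the constitutive cyclooxygenase, COX-1. Its probe (NM_008969) read a processed signal of 701 in the control pool and 1282 in the transgenic pool on array 1, well above background in both. The log2 ratio was 0.87 on array 1, with an error of 0.23 by the deposited error model of that spot, and 0.55 on array 2. The mean, 0.71 or 1.64-fold, exceeded that of 91.7% of measured genes but did not pass the rule. On the spike-in scale it was 0.25.

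Ptgs2 encodes COX-2, the inducible cyclooxygenase, and could not be assessed at this signal. Its 2 probes (NM_011198), which start 328 bases apart, read 86.6 and 91.4 in the control pool and 102 and 106 in the transgenic pool. Both are far under the lowest processed signals that were well above background, 199 in the control and 190 in the transgenic channel. After background subtraction, 1 channel of each probe was below 0. The table's log2 ratios were 0.24 and 0.03 for the first probe and 0.22 and -0.03 for the second, and the scanner output set both array 1 ratios to 0. A change of Ptgs2 that stayed under those lowest signals was therefore not detectable here, which does not show its absence.

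**Figure D2:**
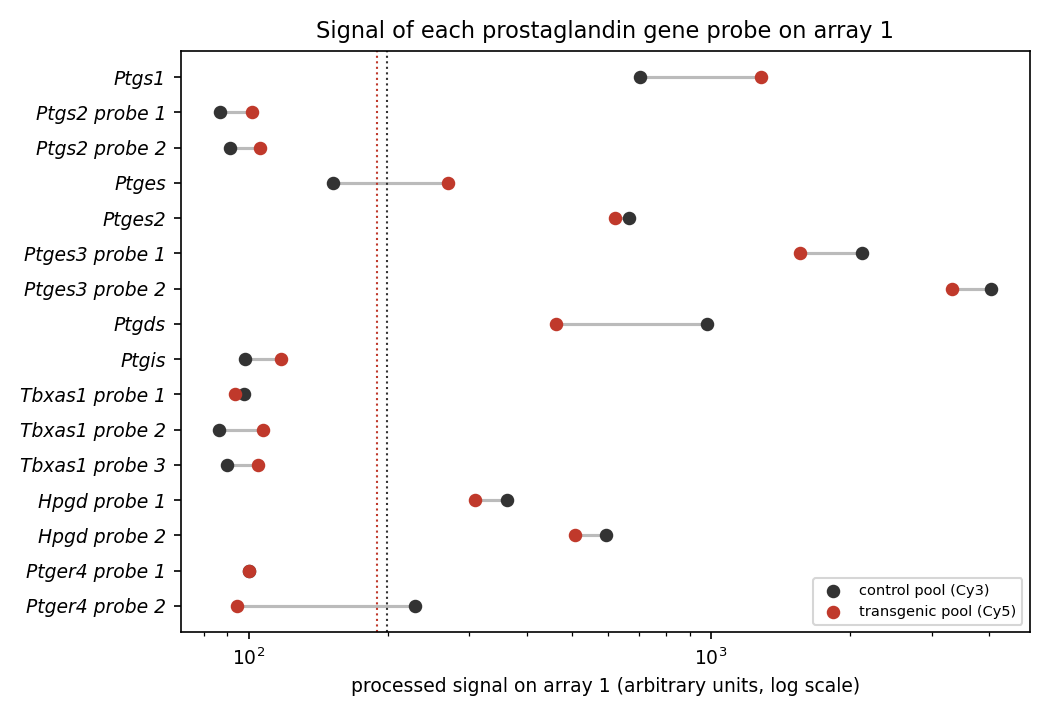
Processed signals of the 16 probes on array 1 (arbitrary units, log axis) for the control pool (black, Cy3) and the transgenic pool (red, Cy5); dotted lines mark the lowest signal well above background in each channel, 199 and 190. Signals can be compared within a probe, not between probes, and only for probes well above background in either channel. For probes dim in both channels the values can be surrogates set by the scanner software, and their gap is not a measured difference. Both signals of Ptgs2, Ptgis, Tbxas1 and the AK051137 probe of Ptger4 (drawn as probe 1) lie left of the lines.

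Ptges encodes the microsomal prostaglandin E synthase that is usually paired with COX-2. Its probe (NM_022415) read 152 in the control pool, not well above background, and 271 in the transgenic pool, which was. The log2 ratios were 0.83, with a spot error of 0.43, and 0.63, a mean of 0.73 or 1.66-fold. With the lowest well-above-background signal of that channel standing in for the control, the transgenic pool was 1.36-fold higher on array 1. This value comes from 1 array and is open to dye bias. It is not a strict lower bound, since a control signal of 229, at a Ptger4 probe, was also not well above background. On the spike-in scale array 1 gave 0.37 and the mean was 0.27. With array 1 background-corrected by normexp, array 1 gave 0.13 and the mean was 0.38.

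Ptges2, a second membrane-bound E synthase, gave opposite signs on the arrays. Its probe (NM_133783) read 665 and 619 in the control and transgenic pools, with log2 ratios of -0.10 and 0.30. The mean of 0.10 turned to -0.36 on the spike-in scale, and no direction is given.

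Ptges3 encodes p23, a cytosolic protein known both as an E synthase and as a co-chaperone of Hsp90. Its brighter probe (NM_019766) read 4035 in the control pool and 3315 in the transgenic pool. There the log2 ratios were -0.28 and -0.38. A second probe, starting 542 bases away, gave -0.45 and -0.12. Both probes were below 0 on both arrays, and their means of -0.33 and -0.28 did not pass the rule. The brighter probe's mean was higher than that of 16.2% of measured genes. On the spike-in scale the means were -0.79 and -0.74.

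Ptgds encodes the lipocalin-type prostaglandin D synthase, and was the member called lower. Its probe with the 472-base gap (NM_008963) read 979 in the control pool and 463 in the transgenic pool on array 1, both well above background. Its log2 ratio was -1.08, with a spot error of 0.25, and -1.25 on array 2, and the mean was 2.24-fold lower. Only 1.72% of measured genes had a lower mean. The distance between the arrays was 0.17, less than the median distance over all genes. Centring on the spike-ins took the mean to -1.62. Before dye normalisation the background-subtracted signals were 52.5 and 26.6. With array 1 recomputed by normexp, its ratio was -0.41 at the planned offset of 50 and -0.93 at an offset of 0, and Ptgds was called at neither.

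**Figure D3:**
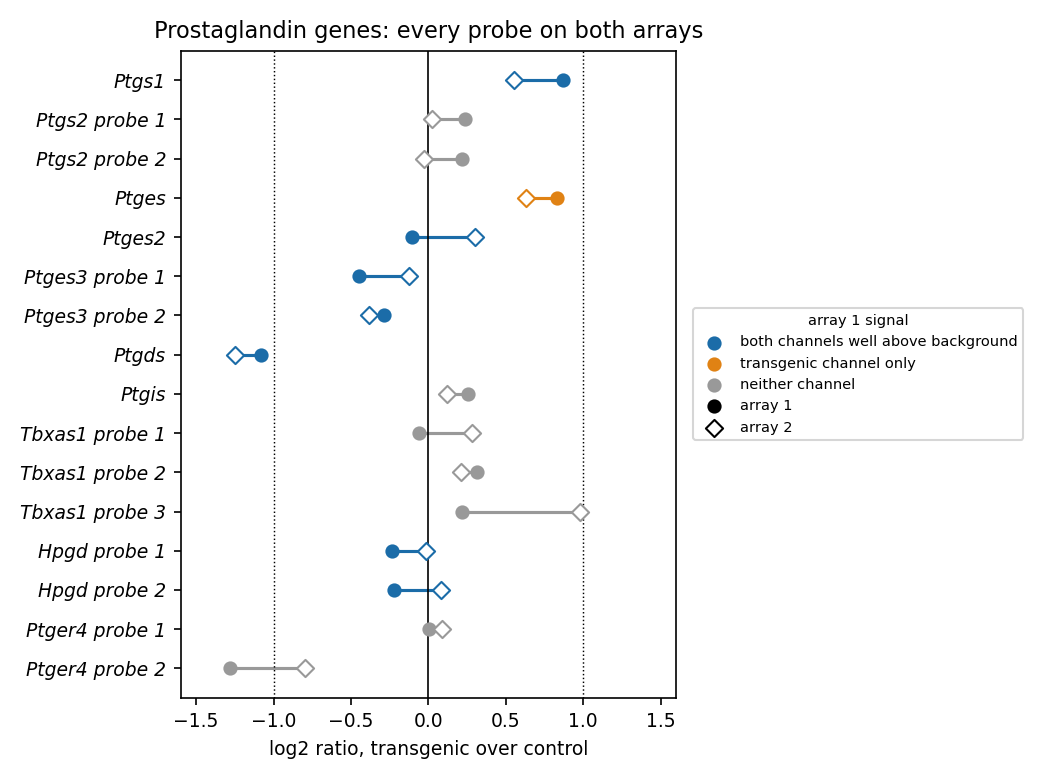
Log2 ratios of transgenic over control for the 16 probes on array 1 (filled circles) and array 2 (open diamonds); colour gives the background flags of array 1, and dotted lines mark 2-fold. Ptgds is the probe past 2-fold on both arrays, and the RefSeq probe of Ptger4 (NM_008965), dim in both channels, passes it on array 1 alone.

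Ptgds fell beside markers of the hair shaft and of melanocytes, while dermal papilla markers were mixed. Among hair shaft and matrix markers, 8 of 8 measured genes were called lower (Krt81 and Krt83 were not measured), and their summed signal on array 1 was 40382 in the control pool and 4622 in the transgenic pool. Krt33a and Krt34 were lowest, at mean log2 ratios of -4.87 and -4.53. The transgenic signals of Krt31, Krt34, Krt86, Dlx3 and Hoxc13 were dim. These genes counted as measured through the control channel alone, in which they read higher. Krt33a, Lef1 and Msx2 were well above background in both channels, with Lef1 at -1.65 and Msx2 at -2.01. Among melanocyte markers 5 of 8 were lower, with sums of 28886 and 13132. Trpm1 lay at -1.85 and Mlana at -1.78, while Sox10 lay at 0.26, with 0.54 and -0.01 on the arrays, and Tyr and Oca2 were not measured. Among dermal papilla markers 1 of 4 was lower, Wif1 at -1.53, beside Trps1 at -1.02, while Alx4 lay at -0.16 and Sostdc1 at 0.22. The sums were 10781 and 7958. Corin, Crabp1, Hhip and Rspo3 were not measured. Relative to the spike-ins the counts called lower were 8 of 8, 6 of 8 and 2 of 4 for the 3 lists in that order. The part of these cell types in the Ptgds value was not tested.

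Ptgis, whose product makes prostacyclin, was not measured. Its probe (NM_008968) read 98.2 and 117 in the control and transgenic pools, and its table ratios of 0.26 and 0.12 rest on signals at background.

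Tbxas1 encodes thromboxane synthase, an enzyme of platelets and macrophages. It had 3 probes, none (0) above background. Of these, 2 abut, starting 60 bases apart (NM_011539), yet gave 0.28 and 0.98 on array 2. On array 1 the same probes gave -0.06 and 0.22. Background flags were read from array 1 alone, so whether dim signal accounts for the distance on array 2 was not tested. The third (AK048544), 55637 bases away, less than the 220432 bases that RefSeq's Tbxas1 spans, gave 0.32 and 0.21.

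Hpgd encodes the 15-hydroxyprostaglandin dehydrogenase, the first step of prostaglandin breakdown. Its 2 probes (NM_008278), starting 359 bases apart, were well above background in both channels. The brighter read 593 and 508 in the control and transgenic pools, with log2 ratios of -0.22 and 0.08. The other gave -0.23 and -0.02. The means of -0.07 and -0.12 were smaller than the distance between the arrays at each probe, 0.31 and 0.22. On the spike-in scale they were -0.53 and -0.58.

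Ptger4 encodes EP4, a receptor through which prostaglandin E2 raises cyclic AMP. By the rule on dim probes it was not measured. The RefSeq probe shown above (NM_008965) read 229 in the control pool and 94.3 in the transgenic pool, neither well above background, and its table ratios were -1.28 and -0.80. Since both channels were dim no fold is given. The second probe (AK051137) read 100.2 and 100.4, with ratios of 0.00 and 0.09. It lies 27744 bases from the first, farther than the 10789 bases that RefSeq's Ptger4 spans on GRCm38.p6. Whether the 2 probes read the same transcript was not tested.

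Besides the members, 6 lists, here called the other pathway lists, held 33 further genes, of which 20 were measured. They join genes of the prostanoid pathway with Hsp90 partners of Ptges3 (8 of the 20) and nuclear receptors (1 of the 20). The rule called 3 higher (Akr1c18, Fkbp5 and Pparg) and none (0) lower, beside 3.72% and 1.68% of all measured genes. Of these, Fkbp5 is on the list of Hsp90 partners and Pparg on that of nuclear receptors. The median of the 20 was -0.01, as it was for all measured genes. At 1.5-fold the counts were also 3 and 0.

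The other terminal synthases and ketoreductases, which finish or interconvert prostaglandins, had 4 of 6 members measured and 1 called. Akr1c18, an aldo-keto reductase known for inactivating progesterone and for making prostaglandin F2alpha, read 559 in the control pool and 2715 in the transgenic pool. Its log2 ratios were 2.28 and 2.0, a mean 4.41-fold rise, and 1.68 on the spike-in scale. It was called under every alternative processing tried. The Akr1c genes are close copies, and how far its single probe reads the others was not tested. Prxl2b, which also makes prostaglandin F2alpha, lay at 0.47 and 0.54, and the carbonyl reductase Cbr1 at 0.52 and 0.38. Akr1b3, the aldose reductase, lay at 0.06 and -0.13. On the spike-in scale the means were 0.05 for Prxl2b, 0.00 for Cbr1 and -0.49 for Akr1b3. Hpgds, the hematopoietic D synthase, had no probe above background, and neither had Akr1b7.

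Genes of prostaglandin transport and of later breakdown were all measured, and none (0 of 4) was called. Each lay above 0 on both arrays. Abcc4, an efflux pump for prostaglandins, read 313 and 595, with log2 ratios of 0.93 and 0.52. Ptgr1, a reductase that acts after Hpgd, gave 0.82 and 0.40. Slco2a1, the uptake transporter that precedes Hpgd, gave 0.48 and 0.33, and Ptgr2, a second reductase, 0.21 and 0.01. On the spike-in scale Slco2a1 and Ptgr2 turned to -0.06 and -0.35.

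Receptors were largely below background: 1 of 8 listed genes was measured. Ptger3, a receptor that lowers cyclic AMP, read 346 and 344, with log2 ratios of -0.01 and -0.11. The probes for Ptger2, Ptgdr, Ptgdr2, Ptgfr, Ptgir and Tbxa2r were dim in both channels, and for Ptger1 no probe was named. Among cytosolic phospholipases, which supply arachidonate, Pla2g4a lay at -0.34 and -0.08 and was dim in the transgenic channel. Pla2g4b lay at -0.40 and 0.09 by its brightest probe, and a second one, well above background in the control pool alone, gave -0.80 and -1.0. Pla2g4e and Pla2g6 were dim.

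The Hsp90 chaperone partners of Ptges3 had all 8 members measured. None (0) was called lower, 1 was called higher, and the median was -0.23. Hsp90aa1, the stress-inducible Hsp90, lay at -0.57 and -0.46, the lowest mean of the list. By their brightest probes Hsp90ab1 gave -0.12 and 0.13, Hspa8 -0.32 and -0.16, and Fkbp4, an immunophilin that joins Hsp90 complexes, -0.27 and -0.26. Their second probes, also well above background in both channels, lay further apart between the arrays. These gave -0.45 and -0.04 for Hsp90ab1, -0.92 and 0.00 for Hspa8, and -0.81 and -0.11 for Fkbp4. Stip1, Cdc37 and Ahsa1 had means of -0.18, -0.23 and -0.23. Fkbp5, an immunophilin known as a target of glucocorticoid signalling, departed from the others. It read 540 in the control pool and 1623 in the transgenic pool, with log2 ratios of 1.59 and 1.49 and a mean rise of 2.91-fold. Its other probes, dim in 1 or both channels, gave means of 0.99 and 1.26. With array 1 by normexp at the planned offset its ratio there was 0.77 and it was not called.

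Among nuclear receptors that bind prostaglandin metabolites, Pparg alone was measured. It drives fat cell formation and is also active in sebocytes. It read 1153 in the control pool and 2828 in the transgenic pool, with log2 ratios of 1.29 and 1.01 and a mean 2.22-fold rise. It was not called on the spike-in scale, where its mean was 0.69, or with normexp at the planned offset, where array 1 gave 0.85. It rose beside adipocyte markers, 5 of 5 of which were called higher (summed signal 105319 in the control and 340548 in the transgenic pool, Cfd at 2.08 and Cidec at 1.83, Lep not measured). It also rose beside sebaceous markers, of which 6 of 6 were called higher (17472 and 77031, Fa2h at 2.74 and Cidea at 2.43, Scd3 and Awat2 not measured). Of the adipocyte sums, Fabp4 alone made up 75394 and 231178. Relative to the spike-ins, 3 of 5 adipocyte and 5 of 6 sebaceous markers were called higher. The part of these cells in the Pparg value was not tested.

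**Figure D4:**
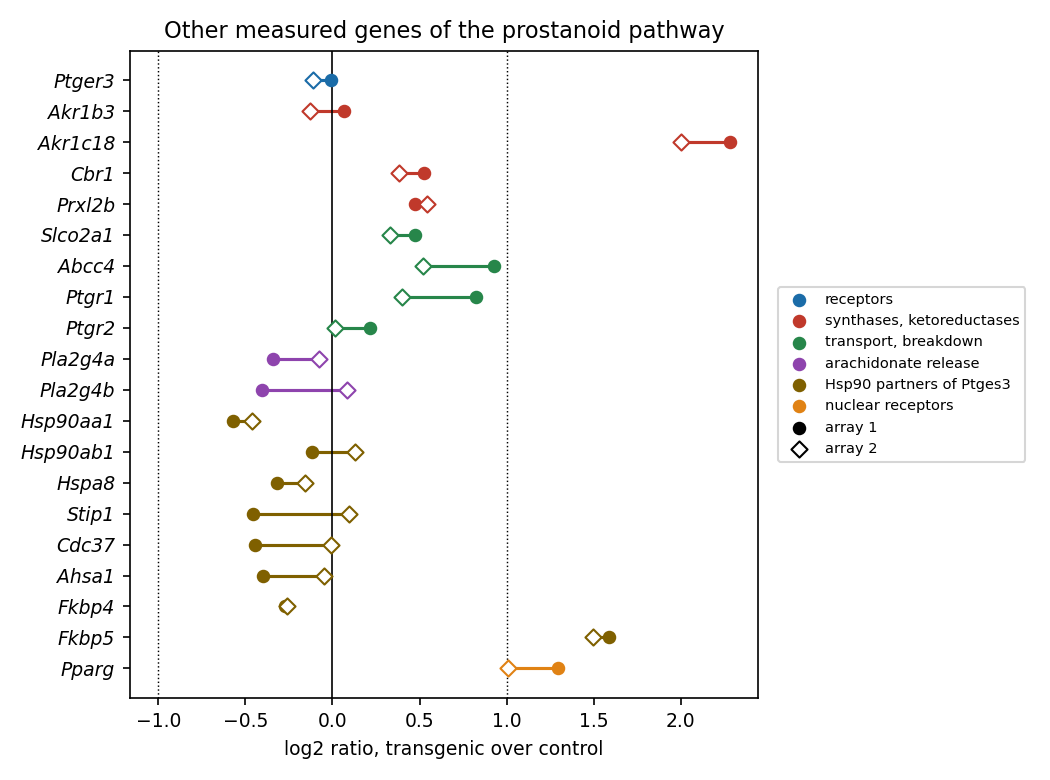
Log2 ratios of transgenic over control for the 20 measured genes of the 6 other pathway lists on array 1 (filled circles) and array 2 (open diamonds), coloured by list; dotted lines mark 2-fold. Akr1c18, Fkbp5 and Pparg lie past 2-fold on both arrays, and the transport and breakdown genes all lie right of 0.

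Markers of other cell types that skin holds were read beside Ptgs1 and Ptges, and did not move as one. Of 8 measured macrophage markers 3 were called higher and none (0) lower, with summed signals of 12460 and 28701 in the control and transgenic pools. C1qa, dim in 1 channel, and Adgre1 lay at mean log2 ratios of 1.32 and 1.31, and Cd68 was not measured. Lyz2 alone made up 9424 and 22467 of the sums. Of 5 measured mast cell markers 1 was called, Hdc at 1.67 and dim in 1 channel, beside Cpa3 at 0.98, while Kit lay at -0.94, with sums of 2128 and 2834. Tpsb2, Tpsab1, Ms4a2 and Fcer1a were not measured. Of 5 platelet markers Pf4 alone was measured, at 0.81 (1301 and 2585). Endothelial markers had 1 of 5 called, Vwf at 1.08, with sums of 3377 and 5755, and Pecam1 and Tek not measured. Cldn5 lay at 0.91, with 0.40 and 1.42 on the arrays. Fibroblast markers had 0 of 6 called, with sums of 411355 and 428401 and the largest means at 0.52 for Lum and 0.42 for Col3a1, while 3 of 6, Col1a1 at -0.30 among them, were below 0 on both arrays. Smooth muscle and pericyte markers had 0 of 6 called, with sums of 34112 and 26821, Rgs5 at 0.78 and Pdgfrb at 0.77, while Tagln lay at -0.46, Myh11 at -0.05 and Acta2 at -0.03. Neutrophil markers were not measured (0 of 7). The macrophage and endothelial calls were lost on the spike-in scale (0 of 8 and 0 of 5), with means of 0.85 for Adgre1, 0.86 for C1qa, 0.78 for Lyz2 and 0.62 for Vwf. Of the mast cell markers, Hdc was then still called higher and Kit was called lower. The part of these cell types in the Ptgs1 and Ptges values was not tested.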

How the data were processed

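Total RNA (500 ng) was labelled with Cy3 or Cy5, per the labels' protocols. The authors' deposited scanner output of array 1 holds spot intensity in 2 channels, from which Agilent Feature Extraction 9.5.1.1 subtracted background, removed spatial trends, normalised the dyes and replaced dim values by surrogates, per the file headers. Surrogates pull ratios near background towards 0. Its deposited log10 ratio, ratio error and p-value come from an error model of 1 spot, per the file headers, and its p-value was not used. Other deposited spot values, per the file headers, are 0 or 1 flags for background, saturation and outliers. The deposited value table holds 1 log10 ratio per array. Column 1 equalled Cy5 over Cy3 of the processed intensity within 1.66e-09 on the log2 scale. The columns correlated at -0.58 as deposited over probes, the sign left by a dye swap, and their medians were 0.0145 and -0.0243. The scale and direction of column 2 rest on this and on its dyes. The sources used here give none of its later processing, and array 2's scanner output was not used here.

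Ratios were turned to log2 transgenic over control and the arrays averaged. Control spots and 29 spots with outlier flags on array 1 were left out; 41167 probes remained, of which 13341 were well above background in either channel. The brightest such probe stood for a gene. Probes were named through RefSeq (GRCm38.p6) by accession (24375), symbol (6301) or unique synonym (2355), and 8143 kept the array's name. Probes named Gbf1 and COX2 on the array, which are also synonyms of Ptges2 and Ptgs2, belong to other genes and were left out. Of the 16 members' probes none (0) was saturated or flagged as an outlier. Arrays are few, which limits the precision.

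Named were all members with every probe, and every measured gene of the other pathway lists. Of each marker list, the 2 measured genes with the largest absolute mean were named. Further genes of the pathway and marker lists were chosen after their values were seen. These were named where a list was mixed, where genes were dim in 1 channel, or where 1 gene made up most of a sum. Members, lists and rules were chosen with earlier results of these data known. Marker counts on the spike-in scale were added after seeing the data. The size rule was tested on simulated data. Alternatives used R 4.3.3 with limma 3.58.1 and Python 3.11.15.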

Additional observations from a re-analysis of the deposited data

How the results depend on the processing

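No paired analysis was possible because the 2 arrays are a dye swap of 1 comparison, counted as 1 replicate. The alternatives were centring on the median gene or on the spike-ins, leaving out either array, no filter on dim probes, both channels above background, normexp with loess on array 1, the mean of a gene's probes, and a 1.5-fold rule. The count of members called lower (1, Ptgds) was 0 with array 1 by normexp at an offset of 50, and also 0 at an offset of 0, which was chosen after seeing the data, and 1 under the other alternatives. The median log2 ratio of the members was -0.44 on the spike-in scale. The count of members called higher was 1 at 1.5-fold (Ptges, measured through the transgenic channel alone) and 0 otherwise. Of the other pathway lists, the 3 genes called higher became 1 (Akr1c18) with normexp at an offset of 50, and 2 on the spike-in scale. Leaving out array 1 or array 2 changed no count of called members; the members' median was then 0.19 and -0.16. Ptgds kept its sign throughout, from -1.62 to -0.83, while Hpgd (-0.53 to 0.08) and Ptges2 (-0.36 to 0.30) changed sign. Signals at background limit what can be said of the 4 unmeasured members. The spike-in scale uses 1 shift for both arrays, since the designed ratios of spike-ins follow the dye.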

Other observations

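The array names 2 kinds of probe by symbols that are also synonyms of members. The probe named COX2 carries the mitochondrial cytochrome c oxidase subunit, not Ptgs2, and was bright (142769 in the control and 173644 in the transgenic pool, mean log2 ratio 0.21). A lookup by synonym alone would have given the unmeasured Ptgs2 a bright value. In the same way, Gbf1 is a synonym of Ptges2 but names a Golgi exchange factor on this array, whose 2 probes above background had means of -0.39 and -0.06.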
